A study of Homo sapiens with 6 samples.

Results

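Most small nucleolar RNAs (snoRNAs) and many microRNAs have no promoter of their own. They are cut out of longer transcripts, and where such a host codes for no protein its name often ends in HG, for host gene. Many snoRNA host RNAs are translated from a short upstream reading frame and are then degraded by nonsense-mediated decay, so that the intronic snoRNA outlives the spliced host. A microRNA host is instead cut by Drosha in the nucleus, and Dicer then trims the hairpin to the mature form. The host transcripts were taken here together with a few long noncoding RNAs often studied beside them, such as NEAT1, the scaffold of nuclear paraspeckles, and MALAT1, which gathers in nuclear speckles.

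HCT116, a human line from a colorectal carcinoma, was transfected with 2 siRNA reagents at once, a pool against CDK4 and an siRNA against CDK6, each at 30 nM. The control cells received 2 non-targeting reagents at the same doses. RNA was taken 96 h after transfection and hybridised to Affymetrix arrays, 3 arrays in each group, labelled as biological replicates. These kinases drive cells from G1 into S phase by phosphorylating the retinoblastoma protein, which frees E2F factors, and the title of the series names MYC dependence as a response to their loss. The design is limited to a single line, 1 time point and a joint knock-down, so the parts of CDK4 and CDK6 cannot be told apart.

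The members were every gene whose platform symbol is SNHG with a number or MIR with the ending HG, plus GAS5, EPB41L4A-AS1, ZFAS1, NEAT1, MALAT1, CYTOR, PVT1, DANCR, NORAD and TUG1. CCAT1, also in the rule, matched no probe set. This gave 83 genes of 21357, with 177 probe sets of 54613. Where a gene had several, the brightest on average stood for it, and CYTOR and MIR4435-2HG shared one. Sorted by gene name, the 83 fell into 28 snoRNA hosts, 50 microRNA hosts (PVT1 among them) and 5 other long noncoding RNAs. The last were NEAT1, MALAT1, TUG1, NORAD and CYTOR. By position in RefSeq (GRCh38.p14), SNHG27 and SNHG28 held no snoRNA gene, and MIR124-1HG and MIR670HG held no microRNA gene. On 48 the probe set carried the member's symbol alone, on 30 also symbols of the small RNAs inside it, and on 5 that of another long gene, as for SNHG4 with MATR3, whose transcripts then cannot be told apart. Values are log2 robust multi-array average (RMA) signals, and a difference is CDK4/6 siRNA minus control siRNA on that scale, so that 1 unit is a doubling.

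The targets fell. CDK6 was 10.42, 10.41 and 10.35 on the control arrays and 8.81, 8.82 and 8.88 on the CDK4/6 arrays, which is 33.9% of control (adjusted p = 8.79e-06). CDK4 fell to 62.2% (adjusted p = 0.000447), and MYC rose 1.34-fold (adjusted p = 0.00102). Epithelial EPCAM, KRT8, KRT18, KRT19 and CDH1 had control means of 10.96 to 13.16, while the intestinal markers CEACAM5, VIL1 and CDX2 were dim, at 5.02 to 6.66. Of these 8, KRT8 and KRT18 rose by 0.59 and 0.51 (adjusted p = 0.000191 and 0.000334), CDH1 fell by 0.54 (0.00093), and the other 5 did not pass. The 4 immune markers had control means of 3.78 to 5.83, the 3 endothelial ones 4.60 to 6.29 and the 4 fibroblast ones 4.41 to 8.09, of which COL1A1, at 8.09, fell by 0.49 (adjusted p = 0.000314). The other 10 of these markers did not pass. The array medians lay between 5.36 and 5.39. In a bulk culture a lower signal may come from fewer cells that make a transcript or from less of it per cell, and these cannot be told apart.

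Of the 83 members, 16 passed the test (limma, Benjamini-Hochberg adjusted p under 0.05 over all 20284 probe sets that stood for a gene), 10 of them higher and 6 lower. That is 19.3% of the members beside 27.2% of all genes, of which 14.2% were called higher and 13% lower. The groups did not overlap for 27 members, against 41.1% of all genes. The median difference was -0.01 over the members and -0.001 over all genes. With the arrays scaled to their hybridisation spike-ins instead, 19 members were called higher and 5 lower, as 4901 genes rose and 1375 fell against 2882 and 2640 before, and the median of all genes moved from -0.001 to 0.107. The differences below are on the deposited scale unless another scaling is named, and they do not take that shift into account. The 67 members without a call were 35 dim ones, with a mean value under 6, and 32 with a mean value of 6 or over. Of the 47 with a mean value of 6 or over 15 were called (31.9%, against 43% of all such genes), and of the 36 under 6 only SNHG20 was (2.78%, against 6.31%).

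**Figure D1:**
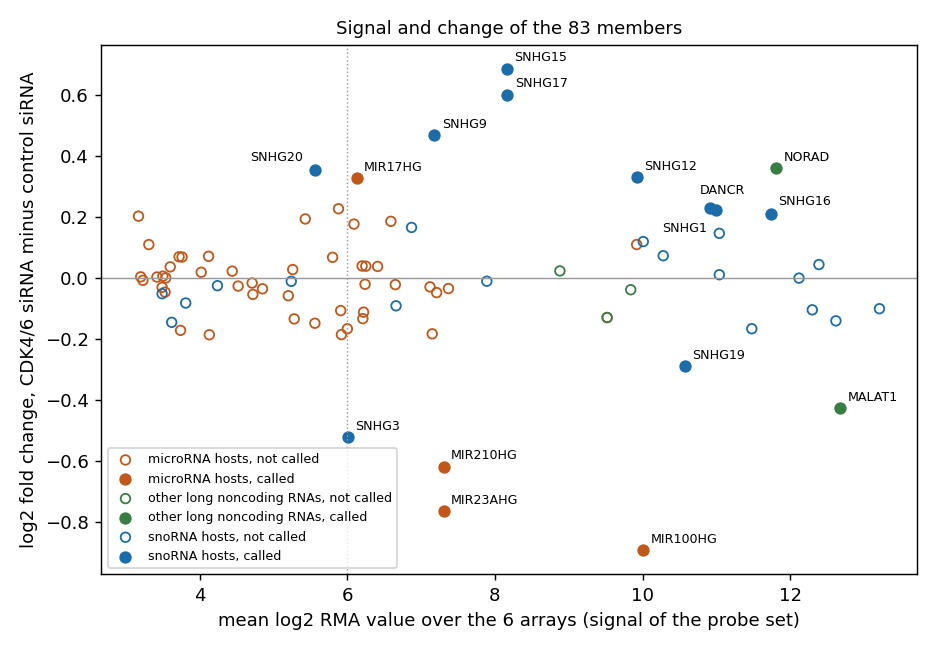
Each point is 1 member, with the mean log2 RMA value of its probe set over the 6 arrays on the horizontal axis and the log2 difference, CDK4/6 minus control siRNA, on the vertical axis; filled points passed the test and the dotted line marks a mean of 6. Of the members left of the line only SNHG20 is filled, and the called members run from -0.89 for MIR100HG to 0.69 for SNHG15.

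The snoRNA hosts held 10 of the 16 calls. SNHG15, SNHG17, SNHG9, SNHG20, SNHG12, DANCR, SNHG1 and SNHG16 rose by 1.16-fold to 1.61-fold, SNHG3 and SNHG19 fell to 69.7% and 82.0% of control, and 18 did not pass. The share called was 35.7%, or 9 of the 22 with a mean of 6 or over (40.9%), near the 43% of all genes at such values. The median of the 28 was 0.006.

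SNHG15, which holds the snoRNA SNORA9 in an intron, had the largest rise of all members on the probe sets that stood for genes. It was 7.80, 7.90 and 7.76 on the control arrays and 8.53, 8.46 and 8.52 on the CDK4/6 arrays. Its lowest CDK4/6 array stood well above its highest control array, and the rise was 1.61-fold (0.69, SE 0.0585, adjusted p = 0.000119). SNHG17, host of 4 copies of SNORA71, which guide pseudouridylation, was 8.01, 7.93 and 7.68 in control and 8.48, 8.38 and 8.56 after CDK4/6 siRNA. Control array 3 was the lowest, and all CDK4/6 arrays lay above all controls (1.52-fold, SE 0.0897 on the log2 scale, adjusted p = 0.00131). A second probe set of SNHG17 rose by 0.45 (adjusted p = 0.00166 over all probe sets), and the third, with a mean of 4.40, gave 0.15 with overlapping groups (adjusted p = 0.415).

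SNHG9, host of SNORA78, was 7.09, 7.02 and 6.74 in control and 7.42, 7.36 and 7.47 after CDK4/6 siRNA. Here too control array 3 was lowest, and the groups did not overlap (1.38-fold, adjusted p = 0.00484). SNHG20 holds SCARNA16, a guide of the Cajal body, where small nuclear RNAs are modified. It was dim, at 5.46, 5.24 and 5.46 in control and 5.78, 5.72 and 5.71 after CDK4/6 siRNA, and rose 1.28-fold (adjusted p = 0.00586). SNHG12, host of 4 snoRNAs that include SNORA44 and SNORD99, was 9.70, 9.83 and 9.73 in control and 10.04, 10.20 and 10.01 after CDK4/6 siRNA. The difference of 0.33 (SE 0.0700, adjusted p = 0.00745) was seen on all 3 of its probe sets, at 0.33, 0.30 and 0.45.

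The other 3 rises were small. SNHG1, host of 8 box C/D snoRNAs, the class that guides ribose methylation, was 10.87, 11.00 and 10.80 in control and 11.09, 11.14 and 11.10 after CDK4/6 siRNA (0.22, adjusted p = 0.0312). SNHG16, which holds the SNORD1 family, was 11.69, 11.67 and 11.56 in control and 11.89, 11.83 and 11.82 after CDK4/6 siRNA (0.21, adjusted p = 0.0263). The other SNHG16 probe set had the same rounded mean, 11.74, and differed by 0.09 (adjusted p = 0.415 over all probe sets). DANCR, named for its block on differentiation and host of SNORA26, was 10.87, 10.83 and 10.73 in control and 11.09, 10.99 and 11.04 after CDK4/6 siRNA (0.23, adjusted p = 0.0197). None of the 3 overlapped between groups, but each lost its call with arrays left out. SNHG1 gave 0.21 without control array 1 (adjusted p = 0.0826), 0.18 without control array 3 (0.0916), and 0.23, 0.21 and 0.23 without CDK4/6 arrays 1, 2 and 3 (0.0643, 0.0883 and 0.0749). SNHG16 gave 0.22 and 0.17 without control arrays 2 and 3 (adjusted p = 0.0543 and 0.0743), and 0.19, 0.22 and 0.23 without CDK4/6 arrays 1, 2 and 3 (0.0831, 0.0576 and 0.0556). DANCR gave 0.19 without control array 3 (adjusted p = 0.0586), 0.21 without CDK4/6 array 1 (0.0655) and 0.23 without CDK4/6 array 3 (0.0586). These calls therefore stood near the threshold, though the sign held each time. SNHG1 and SNHG16 also missed the threshold after quantile normalisation (0.19 and 0.18, adjusted p = 0.0561 and 0.0553).

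SNHG3, host of the H/ACA snoRNA SNORA73 that takes part in ribosomal RNA cleavage, went the other way. It was 6.43, 6.28 and 6.11 in control and 5.93, 5.45 and 5.88 after CDK4/6 siRNA (-0.52, SE 0.131, adjusted p = 0.0174). CDK4/6 array 2 was the lowest, and the groups did not overlap. Without control array 1 the difference was -0.44 (adjusted p = 0.063) and without control array 2 it was -0.52 (adjusted p = 0.0504). SNHG19, host of SNORD60, was 10.64, 10.73 and 10.79 in control and 10.34, 10.50 and 10.46 after CDK4/6 siRNA (-0.29, SE 0.0659, adjusted p = 0.0112). Under the spike-in scaling its difference was -0.18, with an adjusted p of 0.118.

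Several snoRNA hosts with high signals did not pass. GAS5, named for its accumulation in growth arrest and host of 11 snoRNAs, was 12.32, 12.37 and 12.36 in control and 12.24, 12.24 and 12.26 after CDK4/6 siRNA. The arrays of the 2 groups did not overlap, but the difference was -0.10 with a 95% interval of -0.22 to 0.01 (adjusted p = 0.178). The next brightest of its probe sets shared that sign, at -0.07 (adjusted p = 0.514 over all probe sets). The other 3 did not, at 0.29, 0.30 and 0.17 (adjusted p = 0.0514, 0.0684 and 0.266). ZFAS1, host of the SNORD12 family, was 12.68, 12.70 and 12.71 in control and 12.57, 12.57 and 12.52 after CDK4/6 siRNA (-0.14, interval -0.26 to -0.02, adjusted p = 0.0776). A further ZFAS1 probe set was called lower, at -0.21 (adjusted p = 0.0388). With a variance prior that follows the signal (limma trend and robust), GAS5, ZFAS1, SNHG5 and SNHG6 were called lower at -0.10, -0.14, -0.17 and -0.10, and SNHG8 higher at 0.15, with sizes unchanged. SNHG29 had no difference on its bright probe set (0.00, interval -0.12 to 0.12), but was called lower on its 2 dimmer ones (-0.39 and -0.31, adjusted p = 0.00688 and 0.0249). EPB41L4A-AS1, host of SNORA13, gave 0.12 (adjusted p = 0.206) on its bright probe set and 0.69 on the other, at 6.00, 6.36 and 6.08 in control and 6.81, 6.87 and 6.82 after CDK4/6 siRNA (adjusted p = 0.001).

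The rest of the snoRNA hosts without a call were SNHG4, SNHG7, SNHG10, SNHG11, SNHG32 and SNHG33, with means of 6 or over, and SNHG18, SNHG22, SNHG24, SNHG27 and SNHG28, below 6. SNHG32 and SNHG7 were bright and differed by 0.01 (interval -0.10 to 0.13) and 0.07 (interval -0.07 to 0.22). SNHG11 had the highest difference of these, 0.17, and SNHG27 the lowest, -0.14. A dimmer probe set of SNHG10 was called higher, at 0.33 (adjusted p = 0.0434).

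**Figure D2:**
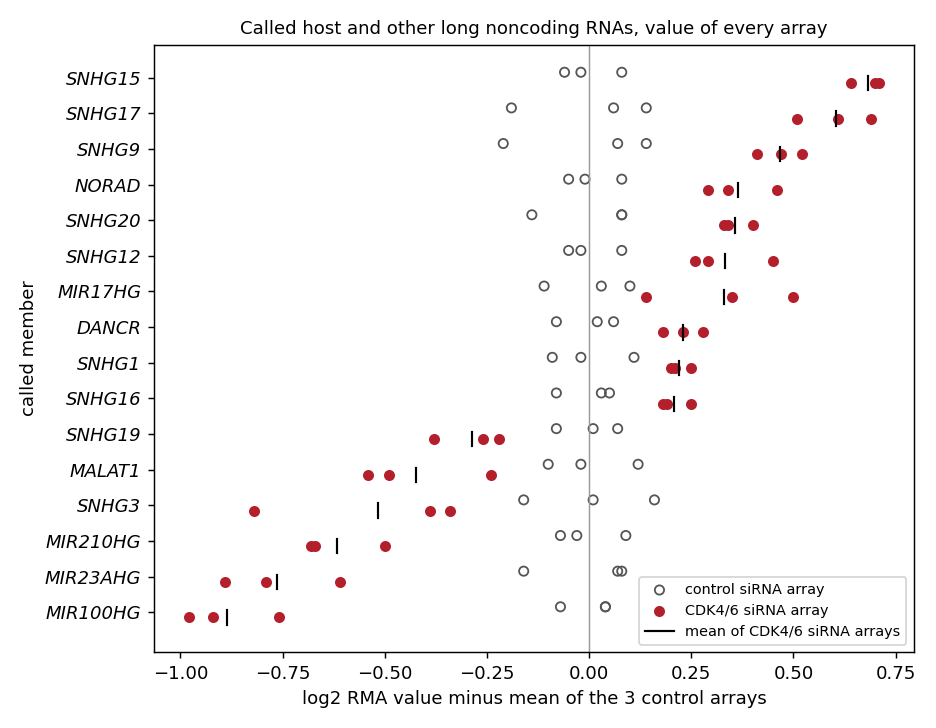
The horizontal axis is the log2 RMA value of each array minus the mean of the 3 control arrays of that member, with open circles for control siRNA, filled circles for CDK4/6 siRNA and a short line at the mean of the filled circles. For all 16 called members the open and filled circles occupy separate ranges, closest for MIR17HG.

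The microRNA hosts held 4 calls among 50 (8.0%). MIR100HG, MIR23AHG and MIR210HG fell, and MIR17HG rose. Among the 20 with a mean of 6 or over the share was 20.0%, beside 43% of all genes at such values, and none of the 30 dimmer hosts was called by limma, where 3 had an unadjusted p under 0.05. The arrays measured the long hosts and not the mature microRNAs, so a change of a host does not give the level of what is cut from it. To show which microRNAs these 4 transcripts carry, the main mature form of each is given, 5′ to 3′, from RefSeq (GRCh38.p14), with the seed at bases 2 to 8 in capitals.
From MIR100HG on chromosome 11,
miR-100-5p: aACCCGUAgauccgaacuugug
let-7a-5p: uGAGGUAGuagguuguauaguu
miR-125b-5p: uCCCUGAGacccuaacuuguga
From MIR23AHG on chromosome 19,
miR-23a-3p: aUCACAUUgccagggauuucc
miR-27a-3p: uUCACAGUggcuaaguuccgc
miR-24-3p: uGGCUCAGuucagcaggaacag
From MIR210HG on chromosome 11,
miR-210-3p: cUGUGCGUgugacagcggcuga
From MIR17HG on chromosome 13,
miR-17-5p: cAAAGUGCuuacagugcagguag
miR-18a-5p: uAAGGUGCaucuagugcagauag
miR-19a-3p: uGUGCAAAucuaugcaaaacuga
miR-20a-5p: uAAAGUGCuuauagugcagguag
miR-19b-3p: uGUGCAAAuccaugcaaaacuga
miR-92a-3p: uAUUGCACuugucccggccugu

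Among these, miR-17-5p and miR-20a-5p share the seed AAAGUGC, and miR-19a-3p and miR-19b-3p share GUGCAAA. No seed was shared between the hosts that fell and the host that rose. MIR100HG also holds a 4th microRNA gene, miR-10526.

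MIR100HG, whose let-7 and miR-100 products are known for repressing growth genes, had the largest fall of all members on the probe sets that stood for genes. It was 10.38, 10.49 and 10.49 in control and 9.47, 9.69 and 9.53 after CDK4/6 siRNA. The highest CDK4/6 array lay well below the lowest control, and the fall was to 53.9% (-0.89, SE 0.0707, adjusted p = 9.57e-05). Its other probe set was dim, with a mean of 3.08, and differed by -0.09 (adjusted p = 0.434). MIR23AHG carries the miR-23a, miR-27a and miR-24 cluster, studied in blood and muscle cells. It was 7.53, 7.77 and 7.76 in control and 6.90, 7.08 and 6.80 after CDK4/6 siRNA, a fall to 59.0% (-0.76, SE 0.0915, adjusted p = 0.000469). The second MIR23AHG probe set, with a mean of 6.89, did not move with it (-0.02, 95% interval -0.27 to 0.23, adjusted p = 0.936), and the 95% interval of the standing one was -0.97 to -0.55. The fall therefore rests on 1 of the gene's 2 probe sets, and was lost (-0.02, adjusted p = 0.924) once probe sets with a letter before _at in their name were set aside.

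MIR210HG, host of the hypoxia-induced miR-210, was 7.55, 7.71 and 7.59 in control and 6.95, 7.12 and 6.94 after CDK4/6 siRNA. The groups stood well apart, with a fall to 65.2% (-0.62, SE 0.0715, adjusted p = 0.0004). Its second probe set fell by the same order, -0.66 (adjusted p = 0.00277). MIR17HG carries the miR-17 to miR-92a cluster, a known target of MYC and of E2F factors. It was 5.99, 6.06 and 5.85 in control and 6.10, 6.31 and 6.46 after CDK4/6 siRNA, 1.25-fold higher (0.33, SE 0.0960, adjusted p = 0.0333). The closest arrays were 6.06 in control and 6.10 after CDK4/6 siRNA. Without control array 1 the difference was 0.34 (adjusted p = 0.0703), without control array 3 0.27 (0.121), and without CDK4/6 arrays 2 and 3 it was 0.32 and 0.24 (0.0814 and 0.105). Its other probe set, with a mean of 3.17, gave 0.13 (adjusted p = 0.433).

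PVT1, the neighbour of MYC and host of miR-1204 to miR-1207, did not pass. It was 9.82, 9.94 and 9.85 in control and 9.94, 10.05 and 9.94 after CDK4/6 siRNA. The groups touched at 9.94, and the difference was 0.11 (interval -0.03 to 0.25, adjusted p = 0.24), while MYC differed by 0.42. The other 4 PVT1 probe sets were dim and gave -0.09 to 0.06. The 15 further hosts with a mean of 6 or over and no call were MIR1-1HG, MIR9-1HG, MIR22HG, MIR124-1HG, MIR200CHG, MIR503HG, MIR550A3HG, MIR570HG, MIR600HG, MIR1915HG, MIR3147HG, MIR3936HG, MIR4435-2HG, MIR4453HG and MIR4697HG, from -0.18 for MIR570HG to 0.19 for MIR550A3HG. MIR200CHG, host of the epithelial miR-200c and miR-141, gave 0.18 (interval 0.00 to 0.35, adjusted p = 0.13), and MIR22HG -0.02 (interval -0.24 to 0.20). MIR503HG, host of miR-503, gave -0.13 (adjusted p = 0.135). Dimmer probe sets of MIR570HG and MIR1915HG were called, at -0.42 and 0.79 (adjusted p = 0.0156 and 0.0159).

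The 30 hosts with means under 6 included those of the neural miR-124 and miR-9 (MIR124-2HG, MIR9-2HG, MIR9-3HG), of the muscle miR-133a (MIR133A1HG), of the lymphoid miR-155 (MIR155HG) and of the p53-induced miR-34b and miR-34c (MIR34BHG). The others were MIR7-3HG, MIR31HG, MIR99AHG, MIR137HG, MIR181A2HG, MIR205HG, MIR497HG, MIR548XHG, MIR646HG, MIR663AHG, MIR670HG, MIR924HG, MIR2052HG, MIR3663HG, MIR3667HG, MIR3681HG, MIR3945HG, MIR3976HG, MIR4290HG, MIR4300HG, MIR4307HG, MIR4458HG, MIR4500HG and MIRLET7BHG. Their differences ran from -0.19 for MIR4458HG to 0.23 for MIR31HG. MIR31HG lay just outside the threshold, at 5.65, 5.77 and 5.87 in control and 6.07, 6.02 and 5.88 after CDK4/6 siRNA (adjusted p = 0.0573), and just inside it lay MIR17HG and SNHG1 (0.0333 and 0.0312). MIR31HG was called higher under 8 of the 19 alternatives run, at 0.23 to 0.34, 4 of them other scalings of the arrays (quantile, median, cyclic loess and spike-in). Without control array 3 or without CDK4/6 array 3 it gave 0.28 (adjusted p = 0.0405 and 0.0417).

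Of the 5 other long noncoding RNAs, NORAD rose and MALAT1 fell. NORAD, which is induced by DNA damage, was 11.62, 11.58 and 11.71 in control and 11.92, 12.09 and 11.97 after CDK4/6 siRNA. All CDK4/6 arrays stood above all controls (1.28-fold, SE 0.0664 on the log2 scale, adjusted p = 0.0038), and its second probe set rose by 0.48 (adjusted p = 0.00585). MALAT1 was 12.79, 12.87 and 13.01 in control and 12.35, 12.65 and 12.40 after CDK4/6 siRNA, a fall to 74.4% (-0.43, SE 0.0906, adjusted p = 0.00773). Of its 12 probe sets 11 lay below 0 and 3 were called lower (-0.43, -0.58 and -0.61), with a range of -0.61 to 0.04. TUG1 gave 0.02 (adjusted p = 0.866) on its standing probe set, and 1 of its 5 others, a dim one, was called higher (0.39, adjusted p = 0.0225). CYTOR and MIR4435-2HG, near copies of each other read by 1 probe set, gave -0.13 (adjusted p = 0.106).

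NEAT1 differed by probe set. The brightest was 9.74, 9.96 and 9.86 in control and 9.61, 9.97 and 9.87 after CDK4/6 siRNA, with overlapping groups (-0.04, 95% interval -0.26 to 0.19, adjusted p = 0.868 over all probe sets). The next, 224566_at, gave 0.05 (adjusted p = 0.825). In contrast, 225239_at was 9.07, 9.26 and 9.14 in control and 7.70, 7.45 and 7.46 after CDK4/6 siRNA. It fell to 32.5% of control (-1.62, SE 0.0862, interval -1.81 to -1.43, adjusted p = 3.46e-05), a larger change than that of any member on its standing probe set. A further one, 234989_at, was 7.38, 7.60 and 7.49 in control and 6.24, 6.14 and 6.19 after CDK4/6 siRNA, a fall to 40.6% (-1.30, adjusted p = 4.34e-05). The dimmer 227062_at fell by 0.60 (adjusted p = 0.00103). In these 3 the groups stood far apart, whereas the remaining 4 NEAT1 probe sets gave -0.05, -0.03, -0.01 and 0.13 and were not called. NEAT1 is made as a short and a long form from the same start, and only the long form builds paraspeckles. Where on the transcript each probe set lies was not analysed here, so the 3 that fell are not assigned to a form. Averaged over its 9 probe sets, NEAT1 was called lower (-0.38, adjusted p = 0.001).

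**Figure D3:**
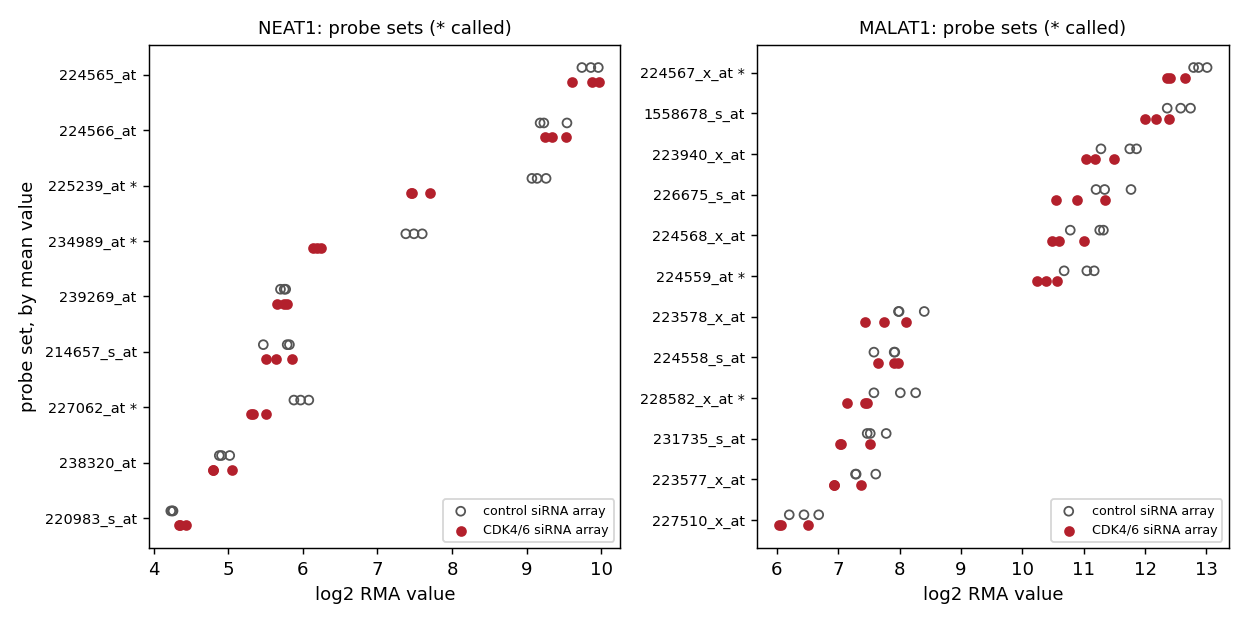
Each row is 1 probe set of NEAT1 (left) or MALAT1 (right), ordered by its mean; the horizontal axis is the log2 RMA value, open circles are the control arrays, filled circles the CDK4/6 arrays, and an asterisk marks an adjusted p under 0.05 over all probe sets. On the left 225239_at, 234989_at and 227062_at separate while the 2 brightest overlap, and on the right filled circles lie mostly to the left of open ones.

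Across all 177 member probe sets 32 were called, 16 higher and 16 lower (18.1%, against 17% of all probe sets on the array, 8.86% higher and 8.17% lower). Of the 44 members with several probe sets none was called in both directions. There were 22 members with a called probe set, and for 8 of them, NEAT1, EPB41L4A-AS1, SNHG10, SNHG29, ZFAS1, TUG1, MIR570HG and MIR1915HG, only a probe set other than the standing one was called. In this fit over all probe sets, SNHG1 and SNHG16 had adjusted p = 0.0578 and 0.054.

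Genes for the proteins that work on these transcripts were read from fixed lists. Their values are RNA signals too, named by the protein, and protein was not measured. The background is again 27.2% of all genes, or 43% of those with a mean of 6 or over. Of 18 genes for proteins of snoRNA particles, 13 rose and 1 fell, with a median of 0.37. NOP56, a core box C/D protein, rose 1.77-fold (adjusted p = 0.000189), NOLC1, a nucleolar chaperone of the particles, 1.56-fold (0.000156), the assembly factor NUFIP1 1.54-fold (0.000124) and the H/ACA protein GAR1 1.48-fold (0.000334). PIH1D1, of the R2TP assembly complex, fell by 0.22 (adjusted p = 0.0175). NOP56 and DKC1 also stand in the next list, since their own introns hold snoRNAs.

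Of 27 protein-coding snoRNA hosts that are not ribosomal proteins, 12 rose and 4 fell, with a median of 0.17. Beside NOP56 these included HSPA8, a heat shock cognate (0.59, adjusted p = 0.000132), WDR43, a factor of ribosome assembly (0.57, 0.000257), and RCC1, the exchange factor of Ran (0.51, 0.000268). TAF1D, a subunit of the RNA polymerase I selectivity factor, was among those that fell (-0.48, 0.000897). None of 20 ribosomal protein genes that host snoRNAs was called by limma (1 had an unadjusted p under 0.05), and their median was -0.03. Their control means were 13.05 to 14.52. The snoRNA host RNAs had a median of 0.006, with both called and uncalled genes on each side, as the plot by gene group shows.

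Among 11 nonsense-mediated decay factors, the helicase UPF1 (0.23, adjusted p = 0.026), SMG5 (0.22, 0.022) and MAGOH of the exon junction complex (0.42, 0.00301, on a probe set shared with MAGOHB) rose, and 8 were not called (median 0.06). Of 14 genes for microRNA processing proteins 6 rose and 3 fell in RNA. The nuclear exporter XPO5 rose 1.67-fold (adjusted p = 0.00012) and DGCR8, the partner of Drosha, 1.37-fold (0.00192), while PRKRA, a partner of Dicer, and the Argonaute AGO4 fell by 0.42 and 0.40 (0.00109 and 0.00108). Of 10 genes for paraspeckle and speckle proteins 6 rose and none fell, with a median of 0.58. SFPQ, a core paraspeckle protein, rose 1.68-fold (adjusted p = 0.000185), the splicing factors SRSF2 and SRSF1 1.95-fold and 1.71-fold (0.000243 and 0.000408), and RBM14 1.61-fold (0.000665). NONO, the partner of SFPQ, gave 0.11 (adjusted p = 0.165). The RNA of PUM2, a protein that NORAD binds, fell by 0.20 (adjusted p = 0.0246), and that of KHDRBS1 gave -0.10 (adjusted p = 0.183).

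**Figure D4:**
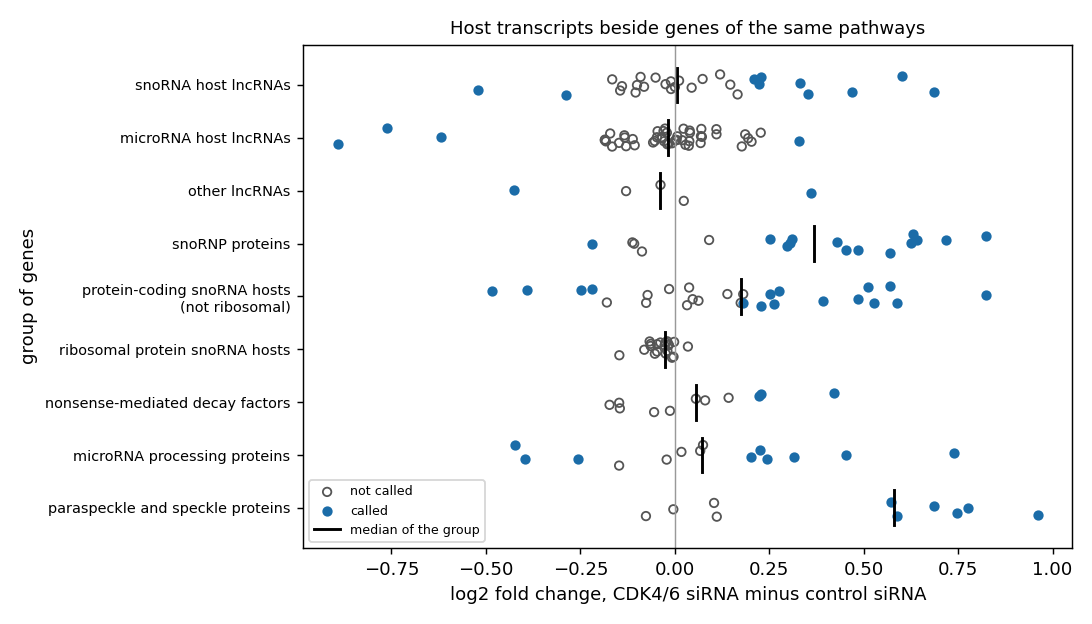
Each point is 1 gene, placed by its log2 difference, CDK4/6 minus control siRNA; filled points passed the test and the bar marks the median of the group. The bars of the snoRNP proteins (0.37) and of the paraspeckle and speckle proteins (0.58) stand to the right, while those of the 3 noncoding groups lie within 0.04 of 0.

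Genes next to the called members were read by their order in RefSeq (GRCh38.p14), without strand. Of 32 distinct neighbouring or overlapping protein-coding genes measured, 6 rose and 3 fell, close to the background. Both neighbours of SNHG1 rose with it, WDR74 by 0.40 and SLC3A2 by 0.59, as did both of DANCR, USP46 by 0.33 and ERVMER34-1 by 0.87. RCC1, next to SNHG12 and overlapping SNHG3, rose by 0.51 as SNHG12 rose and SNHG3 fell. SEC14L1, which overlaps SNHG20, fell by 0.26 as SNHG20 rose, and FRMD8 beside MALAT1 rose by 0.32 as MALAT1 fell. PHACTR4 beside SNHG3 fell by 0.22 as SNHG3 fell, and ST6GALNAC2 beside SNHG16 fell by 0.22 as SNHG16 rose. Of 34 pairs, 6 were called in the same direction as the member and 4 in the opposite one. The measured neighbours of SNHG9, SNHG15, SNHG17, SNHG19, MIR17HG, MIR100HG, MIR210HG, MIR23AHG and NORAD did not pass, though SORL1 beside MIR100HG gave -0.22 (adjusted p = 0.0535).

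Since the series turns on MYC and on kinases upstream of E2F, promoter windows of 300 bases, from 250 before to 50 after the start, were searched on both strands. RefSeq gave windows for 65 members. SNHG15, with the largest rise, and SNHG9 had no window and were not searched. The E-box CACGTG, a motif that MYC can bind, was found in 3 of the 65 (4.62%), against 8.77% of 27305 genes. Of these 3, NORAD rose, while SNHG7 and TUG1 were not called on their standing probe sets. An E2F motif (TTTCCCGC, TTTCGCGC, TTTGCCGC or TTTGGCGC) was found in 4 (6.15%, against 3.99%). All 4 were snoRNA hosts, of 24 with a window (16.7%), and 2 of those rose, SNHG1 and SNHG17. The other 2, SNHG18 and ZFAS1, were not called on their standing probe sets. Of 37 microRNA hosts none held either motif. A start at C followed by 4 pyrimidines, as in transcripts of the translation machinery, was found in 7 of the 24 snoRNA hosts (29.2%, against 5.14% of all genes), a search added after the other motifs. Of those 7, SNHG12 had been called higher, SNHG19 lower, and the other 5 were not called. To show the matches in members that rose, the windows of NORAD (chr20:36050911-36051210, minus strand), SNHG1 (chr11:62855836-62856135, minus strand) and SNHG17 (chr20:38435279-38435578, minus strand) follow, 5′ to 3′, with the match in capitals. The match begins 138 bases before the start in NORAD (the E-box), 180 before it in SNHG1 and 37 before it in SNHG17 (E2F motifs, in SNHG17 on the reverse strand).
NORAD: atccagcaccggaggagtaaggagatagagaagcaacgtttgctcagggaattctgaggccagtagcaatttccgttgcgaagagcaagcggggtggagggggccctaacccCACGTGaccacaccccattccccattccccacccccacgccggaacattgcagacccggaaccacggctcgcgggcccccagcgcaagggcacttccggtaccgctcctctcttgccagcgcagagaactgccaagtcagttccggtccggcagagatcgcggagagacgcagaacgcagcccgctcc
SNHG1: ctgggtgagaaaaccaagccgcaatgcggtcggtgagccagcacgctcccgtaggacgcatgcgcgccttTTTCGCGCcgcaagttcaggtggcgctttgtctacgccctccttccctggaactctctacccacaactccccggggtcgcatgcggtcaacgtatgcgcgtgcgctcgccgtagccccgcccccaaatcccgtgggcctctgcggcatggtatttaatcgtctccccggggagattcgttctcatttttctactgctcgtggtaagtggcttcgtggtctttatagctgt
SNHG17: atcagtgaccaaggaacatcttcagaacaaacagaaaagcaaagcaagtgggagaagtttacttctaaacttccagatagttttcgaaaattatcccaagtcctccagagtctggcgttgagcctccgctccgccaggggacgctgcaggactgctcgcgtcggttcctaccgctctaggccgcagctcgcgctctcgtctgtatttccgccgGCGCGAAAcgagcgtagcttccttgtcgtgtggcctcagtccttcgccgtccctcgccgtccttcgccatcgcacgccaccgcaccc
A match in these windows describes the letters only, and binding was not measured.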

How the data were processed

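RNA of 6 HCT116 cultures, 3 with control and 3 with CDK4/6 siRNA, was measured on Affymetrix arrays. The authors deposited log2 signals per probe set, made with RMA per the submitters' processing notes; its version is not given in the sources used here. Of 54675 probe sets 62 array controls were set aside. Symbols came from the platform annotation: 41091 probe sets had 1, 1801 several and 11721 none, and a several-symbol probe set was used when it held a member.

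Differences were tested with limma 3.58.1 in R 4.3.3 (lmFit and eBayes, group as the only term, Benjamini-Hochberg), over 20284 standing probe sets and, for probe sets, over 54613. Simulated data with known changes were used to check the code. Signals of different probe sets were used to choose the standing one and to set dim ones apart; they are not amounts of transcript. No filter was used, detection calls were not used here, and 3 arrays a group limit precision.

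Array values are printed for called members without overlap between groups (all 16) and for GAS5, SNHG1, ZFAS1, MIR17HG, PVT1, NEAT1 and MALAT1; up to 4 genes with the smallest adjusted p come from each list. Array values of MIR31HG and of further NEAT1 and EPB41L4A-AS1 probe sets, and TAF1D, PIH1D1, NONO and SORL1, were chosen after their values were seen. Members and lists were chosen with earlier results of these data known. Of 83 members 81 matched RefSeq (GRCh38.p14) by gene ID. The alternatives are other choices of probe set, normalisation, filter, variance model, threshold and arrays left out. Figures were drawn with matplotlib 3.10.9.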

Additional observations from a re-analysis of the deposited data

How the results depend on the processing

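Over the 19 alternatives run, 9 of the 16 called members kept direction and call under every alternative that measured them, and none reversed. Of these 9, SNHG9, SNHG12, SNHG15 and SNHG20 had no probe set with 1 symbol, so 18 alternatives measured them. That alternative measured 8 of the 16 called members. Of 295 pairs of member and alternative, 263 stayed on the same side and the other 32 lost the call. Some counts of members moved by over 1.5 times. They were 3 higher with probe sets of 1 symbol (56 members measured), 19 higher with spike-in scaling, 6 higher at a threshold of 0.01, and 12 lower with trend and robust. The count over all genes moved to 3469 at 0.01. With each probe set tested, 9302 of 54613 probe sets were called (17%), against 5522 of 20284 genes (27.2%), so these counts have different bases. With probe sets of 1 symbol fewer members were measured, and at the stricter threshold fewer can pass. For spike-in scaling and for trend and robust the cause was not tested. With an array left out, 7 to 9 members were higher, 5 to 6 lower, and 4406 to 4931 genes were called. With the replicate block the counts were 10 and 6 of members and 4917 of all genes, and no member's call changed; same-numbered arrays did not deviate together (correlations -0.00791, -0.12 and -0.00468), so the numbers give no pairing. Signal limits the 36 members with means under 6.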
